A study of Homo sapiens with 12 samples.

Results

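RNA levels of 46 genes of the cell cycle and of DNA replication were examined in 2 triple-negative lines from breast cancers, MDA-MB-468 (epithelial) and MDA-MB-231 (mesenchymal), after CRISPR knockout (KO) of SMARCA4, the ATPase of the SWI/SNF chromatin remodelling complex. The genes were picked by symbol, and all 46 were among the 11529 genes of the table. They comprised 26 mitotic genes, 17 S-phase genes and 3 transcription factors that drive them. Each cell line gave 3 control samples and 3 SMARCA4-KO samples, 12 in all, and RNA-seq levels were read as log2(FPKM + 1), FPKM being fragments per kilobase of transcript, scaled to the library. KO cells had received Cas9 and 1 guide RNA against SMARCA4 from a lentivirus and were kept as a puromycin-selected pool, so they are not a clone and uncut cells may remain. Sample titles call the control cells WT and their descriptions Control, while the study also describes cells given a nontargeting vector. Which of these were sequenced is not stated. The number of reads behind each value is unknown. The sample descriptions also hold a number after the letter p, from 10 to 12 in MDA-MB-231 and from 25 to 28 in MDA-MB-468, which is not explained. SMARCA4 itself fell by 1.16 on the log2 scale in MDA-MB-468 (adjusted p = 0.014) and by 1.57 in MDA-MB-231 (adjusted p = 0.0014). Without MDA-MB-468 control replicate 2, control replicate 3 or KO replicate 2 its adjusted p there was 0.070, 0.057 or 0.075, with changes of -1.17 to -1.14. The 10 epithelial markers summed to 6946 to 7324 FPKM in control and 7868 to 8587 in KO samples of MDA-MB-468, against 1065 to 1613 and 1608 to 1787 in MDA-MB-231. The 7 measured of 8 mesenchymal markers summed to 2416 to 2716 FPKM in control and 2110 to 2321 in KO samples of MDA-MB-231, against 865 to 998 and 804 to 958 in MDA-MB-468. Both sums thus separated the cell lines as labelled. Between the control cells, all 10 epithelial markers were higher in MDA-MB-468 and 6 of the 7 mesenchymal markers lower. CD44 went the other way, with a mean log2 level of 9.80 in MDA-MB-468 against 8.91 in MDA-MB-231 controls.

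Cells copy their DNA in S phase and divide it in mitosis, and different genes are switched on for each step. E2F transcription factors, freed from RB family proteins, turn on the S-phase genes, many of which carry an E2F site close to the start. Mitotic genes are held off by the DREAM complex, which binds a short element called CHR, and are later activated by MYBL2 (B-MYB) and FOXM1 together with NF-Y, the factor that binds the CCAAT box. Because bulk RNA was measured, fewer cells in a phase and less RNA per cell cannot be told apart.

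The promoters of the gene groups carry these letters at different rates. Promoter sequences came from RefSeq (GRCh38.p14, 250 bases before to 50 bases after the start) and were found for 39 of the 46 genes, while AURKA, BIRC5, FOXM1, MCM4, MCM5, TPX2 and UBE2C had no entry. Both strands were searched for E2F letters (TTTCGCGC, TTTGGCGC or TTCCCGCC), CHR letters (TTTGAA or TTCGAA) and the CCAAT box (CCAAT). CHR letters stood in 15 of 22 mitotic promoters (68.18%) and in 2 of 15 S-phase promoters (13.33%), against 16.62% of all 27305 promoters. E2F letters stood in 3 mitotic promoters (13.64%) and 10 S-phase promoters (66.67%), against 4.30% of all. The CCAAT box was found in 19 mitotic promoters (86.36%) and 10 S-phase promoters (66.67%), against 35.70% of all. Both CHR letters and a CCAAT box were in 14 mitotic promoters (63.64%), against 6.58% of all. Among promoters of genes in the expression table, 7.24% held E2F letters, 10.89% CHR letters and 37.02% a CCAAT box. A match is only a run of letters, and binding was not measured here. The 250 bases before the start of 5 genes are shown to set both promoter types side by side, with all matched letters in capitals. TOP2A encodes the topoisomerase that untangles sister DNA, CDC20 the activator of the anaphase-promoting complex, and CCNB1 the cyclin of mitotic entry. MCM3 and MCM6 encode subunits of the helicase that opens DNA for replication.
TOP2A, chr17:40417897-40418146, minus strand: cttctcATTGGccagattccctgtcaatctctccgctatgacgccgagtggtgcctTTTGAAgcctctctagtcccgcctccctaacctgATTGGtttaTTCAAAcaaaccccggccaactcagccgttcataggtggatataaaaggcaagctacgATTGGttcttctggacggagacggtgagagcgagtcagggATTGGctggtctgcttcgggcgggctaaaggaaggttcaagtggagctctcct
CDC20, chr1:43358731-43358980, plus strand: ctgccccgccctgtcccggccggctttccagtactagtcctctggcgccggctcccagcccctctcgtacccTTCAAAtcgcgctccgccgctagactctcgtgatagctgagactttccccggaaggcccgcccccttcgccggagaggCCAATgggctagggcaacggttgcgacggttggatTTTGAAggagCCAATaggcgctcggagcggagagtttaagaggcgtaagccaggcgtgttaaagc
CCNB1, chr5:69166900-69167149, plus strand: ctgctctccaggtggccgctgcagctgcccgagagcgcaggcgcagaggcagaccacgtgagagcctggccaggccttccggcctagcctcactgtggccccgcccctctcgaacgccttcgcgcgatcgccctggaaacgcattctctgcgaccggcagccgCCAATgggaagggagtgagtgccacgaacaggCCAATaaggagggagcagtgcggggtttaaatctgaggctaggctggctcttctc
MCM3, chr6:52284743-52284992, minus strand: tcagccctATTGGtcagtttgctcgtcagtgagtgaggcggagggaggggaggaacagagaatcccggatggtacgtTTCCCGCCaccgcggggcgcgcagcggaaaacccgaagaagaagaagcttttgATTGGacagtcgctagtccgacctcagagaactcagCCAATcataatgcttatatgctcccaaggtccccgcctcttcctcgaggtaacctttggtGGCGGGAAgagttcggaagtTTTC
MCM6, chr2:135876444-135876693, minus strand: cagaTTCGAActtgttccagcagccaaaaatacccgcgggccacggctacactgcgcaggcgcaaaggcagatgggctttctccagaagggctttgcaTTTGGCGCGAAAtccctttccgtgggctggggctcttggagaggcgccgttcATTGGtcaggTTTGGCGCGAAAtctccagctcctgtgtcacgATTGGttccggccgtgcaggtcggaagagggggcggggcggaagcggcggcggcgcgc
In TOP2A and CDC20 the capitals mark 2 runs of CHR letters each (TTTGAA or, on the other strand, TTCAAA) beside 4 and 2 CCAAT boxes (CCAAT or ATTGG). CCNB1 held 2 CCAAT boxes and no CHR letters in this window. MCM3 had 3 E2F matches and 3 CCAAT boxes, and its last E2F match ran past the start, so that only its first 4 letters are seen. In MCM6 the 12 letters TTTGGCGCGAAA occurred at 2 places, and each run was matched on both strands, giving 4 overlapping E2F matches next to 1 run of CHR letters and 2 CCAAT boxes.

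SMARCA4 KO in MDA-MB-231 cells went with lower mean levels of all 26 mitotic genes, by a median of 0.15 on the log2 scale, while the 17 S-phase genes were split. The mean log2 level over the mitotic genes was 6.46, 6.62 and 6.61 in the control samples and 6.35, 6.39 and 6.45 in the KO samples. The 3 KO samples thus lay below the 3 controls, with group means of 6.56 ± 0.09 and 6.40 ± 0.05 (SD, n = 3). Over the S-phase genes the level was 6.15, 6.15 and 6.22 in control and 6.13, 6.22 and 6.22 in KO cells, and the groups overlapped. S-phase genes minus mitotic genes moved from -0.39 ± 0.07 (SD, n = 3) to -0.21 ± 0.03 (SD, n = 3), without overlap. In MDA-MB-468 cells neither level separated the groups. There the mitotic level was 6.06, 6.24 and 6.19 in control and 6.12, 6.23 and 6.24 in KO cells, and the S-phase level 5.85, 6.15 and 6.14 in control and 6.07, 6.14 and 6.12 in KO cells. These levels are described without a test. Markers of the cell state moved in the same MDA-MB-231 samples. There 9 of 10 epithelial markers had a higher mean after KO and 5 of 7 mesenchymal markers a lower one. Over all genes 51.5% had a lower mean. Each KO sample lay under the controls in the mesenchymal sum, whereas the epithelial sums of the groups overlapped. The mesenchymal markers CD44 and ZEB1 went the other way, from mean log2 levels of 8.91 to 9.21 and of 3.69 to 3.71. CDH1 (E-cadherin) rose by 0.54 (adjusted p = 0.044), but only from a mean log2 level of 0.33 to 0.87, against 5.50 in MDA-MB-468 controls. VIM (vimentin) fell by 0.39 (adjusted p = 0.031) and LOX, which crosslinks collagen, by 0.54 (adjusted p = 0.039). CD14, the 1 of 5 leukocyte markers in the table, rose by 1.18 (adjusted p = 0.029), from 0.79 to 1.39 FPKM in control to 2.65 to 4.90 in KO samples, and stood at 46.1 to 52.9 and 20.8 to 63.2 FPKM in MDA-MB-468. The part of these shifts in the results was not tested. On the linear scale the mitotic genes made up 0.411%, 0.451% and 0.446% of the summed FPKM of the table in MDA-MB-231 control cells and 0.375%, 0.393% and 0.409% in KO cells.

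**Figure D1:**
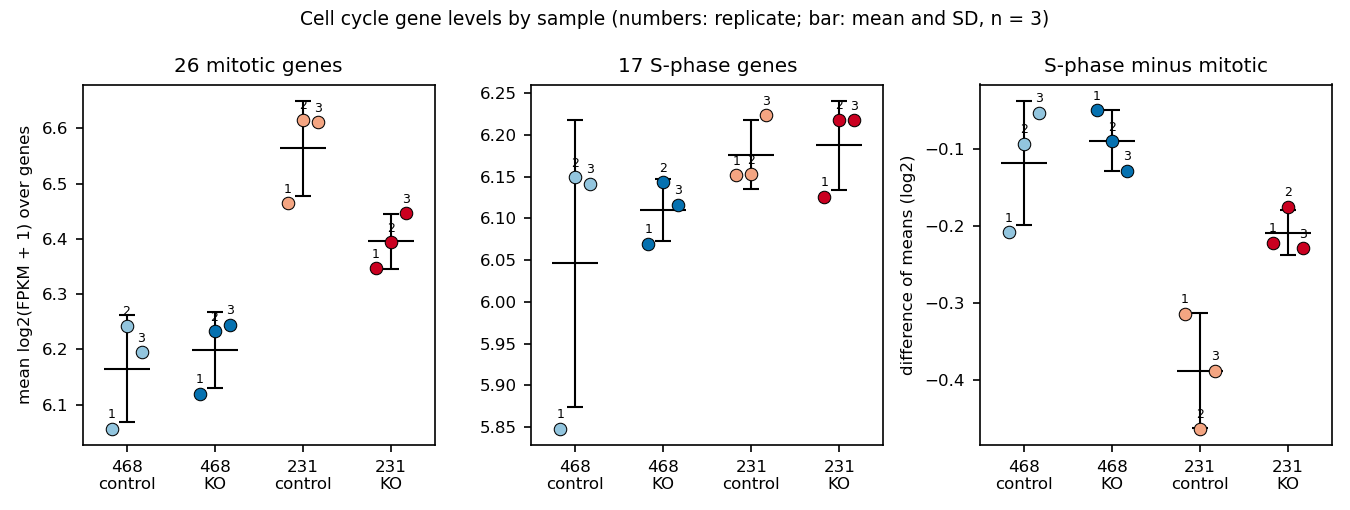
Mean log2(FPKM + 1) over the 26 mitotic genes (left), over the 17 S-phase genes (middle) and their difference (right) in each of the 12 samples, with replicate numbers beside the points and bars for the mean and SD of each group (n = 3). In MDA-MB-231 cells the mitotic level of the KO samples lies below that of the controls (6.40 against 6.56), and replicate 1 has the lowest mitotic level of every group.

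Replicate 1 was the lowest sample of its group for most mitotic genes in all 4 groups. This held for 23 of 26 genes in MDA-MB-231 control, 19 in MDA-MB-231 KO, 23 in MDA-MB-468 control and 21 in MDA-MB-468 KO cells. In MDA-MB-468 control cells it was also the lowest for 17 of 17 S-phase genes and for 3 of 3 transcription factors. In MDA-MB-231 KO cells this held for 14 of 17 S-phase genes and 3 of 3 transcription factors. In MDA-MB-231 control and in MDA-MB-468 KO cells it held for 9 of 17 S-phase genes. The same count was not made over all genes, and the genes of a sample share a library. Whether this order of the replicates is particular to these genes, and what lies behind it, was not tested.

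Tested gene by gene with limma, few members passed a threshold after KO in MDA-MB-231. A gene was called when its adjusted p over all 11529 genes was under 0.05 and its log2 fold change exceeded 0.5 in size. By this rule 1 of 46 members was called, MYBL2, against 3.70% of all genes. At an adjusted p under 0.05 with no limit on the fold change, 4 members passed (AURKA, CENPE, MCM6 and MYBL2), against 10.8% of all genes. A lower mean in KO cells was found for 36 of 46 members and 26 of 26 mitotic genes, against 51.5% of all genes, whose median change was -0.0064. At an unadjusted p under 0.05, 10 of 26 mitotic genes were lower and 0 higher. Of all 11529 genes 1891 were lower and 1705 higher, 31.2% in either direction. The 3 KO samples lay below the 3 controls for 12 of 26 mitotic genes, against 19.4% of all genes. Among these 12 were CCNB1, CDK1, AURKA, BIRC5, CENPE, KIF23, PTTG1 and PRC1.

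**Figure D2:**
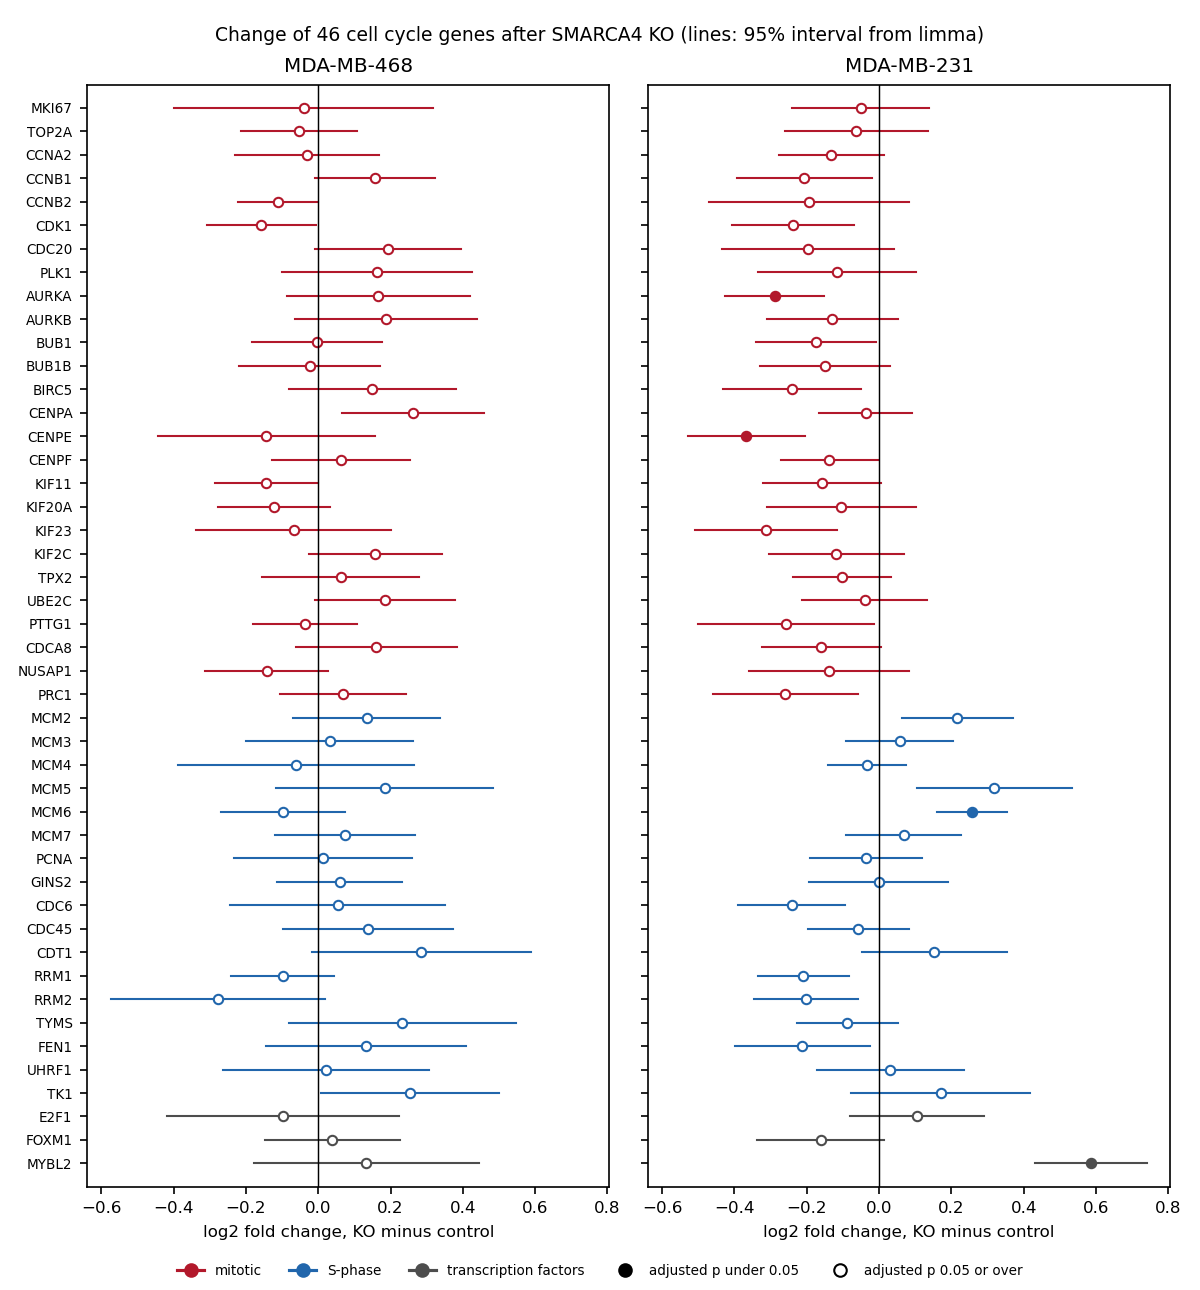
Log2 fold change (KO minus control) of each of the 46 genes with its 95% interval from limma in MDA-MB-468 (left) and MDA-MB-231 cells (right), mitotic genes in red, S-phase genes in blue and transcription factors in grey. Filled points have an adjusted p under 0.05, which 4 genes reached in MDA-MB-231 and 0 in MDA-MB-468 cells, and all 26 red points lie left of 0 in MDA-MB-231.

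Cyclins and their kinase were examined first among the mitotic genes. CDK1, the kinase that starts mitosis, was at 6.54, 6.60 and 6.73 in MDA-MB-231 control cells and at 6.45, 6.40 and 6.31 in KO cells. All KO samples were below the controls, but the difference of -0.24 (95% interval -0.41 to -0.07) had an adjusted p of 0.079. CCNB1, its cyclin partner, was at 7.68, 7.88 and 7.92 in control and 7.56, 7.63 and 7.67 in KO cells, a difference of -0.21 with an adjusted p of 0.13. CCNA2, which acts in both S phase and mitosis, differed by -0.13 (adjusted p = 0.19) and CCNB2 by -0.19 (adjusted p = 0.29).

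Of the mitotic kinases, AURKA passed in MDA-MB-231 cells. AURKA, the kinase of centrosome maturation and spindle assembly (chromosome 20, 54944445 to 54967393 in GRCh37), was at 7.13, 7.25 and 7.23 in control and at 6.86, 6.91 and 6.97 in KO cells. The groups did not overlap, and AURKA fell by 0.29 (SE 0.06, adjusted p = 0.034), from a mean FPKM of 147 to 120. Without any 1 of the 6 samples its adjusted p was between 0.053 and 0.12. TPX2, which activates AURKA at the spindle, differed by -0.10 (adjusted p = 0.26), PLK1, a kinase of several mitotic steps, by -0.12 (adjusted p = 0.42), and BUB1, a kinase of the spindle checkpoint, by -0.17 (adjusted p = 0.14). In the chromosomal passenger complex, the kinase AURKB differed by -0.13 (adjusted p = 0.29), BIRC5 (survivin) by -0.24 (adjusted p = 0.10) and CDCA8 (borealin) by -0.16 (adjusted p = 0.17).

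At the kinetochore, where chromosomes join the spindle, CENPE had the largest decrease of the 26 mitotic genes. CENPE, a motor protein that brings chromosomes to the spindle equator (chromosome 4, 104026506 to 104119602 in GRCh37), was at 4.45, 4.48 and 4.53 in MDA-MB-231 control cells and at 4.20, 4.00 and 4.16 in KO cells. It fell by 0.37 (SE 0.07, adjusted p = 0.029) with no overlap of the groups, and from a mean FPKM of 21.4 to 16.4. Leaving out any 1 sample gave an adjusted p between 0.063 and 0.082. CENPF, a large kinetochore protein, differed by -0.14 (adjusted p = 0.15), whereas CENPA, the histone H3 variant that marks centromeres, differed by -0.04 (adjusted p = 0.68).

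The spindle motors and bundlers had differences of the same sign. KIF23, a motor of cytokinesis, was at 6.05, 6.26 and 6.22 in MDA-MB-231 control and at 5.79, 5.83 and 5.97 in KO cells. Its difference of -0.31 (95% interval -0.51 to -0.12) came closest to the threshold among the genes that missed it in this group, with an adjusted p of 0.060. PRC1, which bundles microtubules of the central spindle, differed by -0.26 (adjusted p = 0.096), KIF11, which pushes the spindle poles apart, by -0.16 (adjusted p = 0.17) and NUSAP1, a microtubule stabiliser, by -0.14 (adjusted p = 0.35). KIF20A and KIF2C differed by -0.10 and -0.12. Of the genes of anaphase onset, PTTG1 (securin) differed by -0.26 (adjusted p = 0.14), CDC20 by -0.20 (adjusted p = 0.23) and UBE2C, the ubiquitin-conjugating enzyme of the anaphase-promoting complex, by -0.04 (adjusted p = 0.74). BUB1B, a checkpoint protein that restrains CDC20, differed by -0.15 (adjusted p = 0.22). The proliferation marker MKI67 and TOP2A differed by -0.05 and -0.06, with adjusted p of 0.70 and 0.64.

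The S-phase genes of MDA-MB-231 cells showed both directions, with 8 higher and 9 lower and a median change of -0.0012. At an unadjusted p under 0.05 in limma, 3 were higher and 4 lower, against 1705 higher and 1891 lower of all 11529 genes. All KO samples were above all controls for 3 of 17 genes, near the share of 16.6% of all genes. They were below the controls for 5 of 17, against 19.4% of all genes. The 3 with higher KO samples all encode subunits of the MCM helicase. MCM6 (chromosome 2, 136597196 to 136634013 in GRCh37), whose promoter is printed above, was at 5.08, 5.09 and 5.13 in control and at 5.35, 5.36 and 5.35 in KO cells. MCM6 rose by 0.26 (SE 0.04, adjusted p = 0.021), from a mean FPKM of 33.2 to 39.9, and without any 1 sample its adjusted p was between 0.050 and 0.094. MCM5 was at 5.52, 5.44 and 5.50 in control and 5.65, 5.97 and 5.80 in KO cells, and its difference of 0.32 (95% interval 0.11 to 0.53) had an adjusted p of 0.069. MCM2 differed by 0.22 (adjusted p = 0.077). The other helicase subunits differed by less, MCM3 by 0.06, MCM7 by 0.07 and MCM4 by -0.03.

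Genes of licensing and nucleotide supply lay on both sides of 0. CDC6, which loads the helicase onto origins, was at 5.71, 5.63 and 5.63 in MDA-MB-231 control and 5.38, 5.35 and 5.51 in KO cells, a difference of -0.24 with an adjusted p of 0.058. CDT1, its partner in loading, differed by 0.15 (adjusted p = 0.26). The subunits of ribonucleotide reductase, which makes deoxyribonucleotides, both had KO samples below the controls. RRM1 was at 6.66, 6.78 and 6.73 in control and 6.54, 6.47 and 6.53 in KO cells, a difference of -0.21 with an adjusted p of 0.055. RRM2 differed by -0.20 (adjusted p = 0.081). TYMS and TK1, which supply thymidylate by synthesis and by salvage, differed by -0.09 (adjusted p = 0.34) and 0.17 (adjusted p = 0.30). FEN1, the nuclease that trims Okazaki fragments, differed by -0.21 (adjusted p = 0.12). The sliding clamp PCNA, the helicase partners CDC45 and GINS2, and UHRF1, which maintains DNA methylation, differed by -0.04, -0.06, -0.0012 and 0.03.

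Of the transcription factors, MYBL2 rose in MDA-MB-231 KO cells. MYBL2 (chromosome 20, 42295659 to 42345135 in GRCh37) was at 5.24, 5.27 and 5.43 in control and at 5.88, 5.89 and 5.93 in KO cells. The lowest KO sample stood above the highest control, and the increase was 0.59 (SE 0.06, 95% interval 0.43 to 0.74, adjusted p = 0.00999), from a mean FPKM of 38.8 to 58.6. Without KO replicate 2 the change was 0.59 with an adjusted p of 0.058, and without any other sample the adjusted p was 0.022 to 0.046. FOXM1 differed by -0.16 (adjusted p = 0.19) and its KO samples lay below the controls, while E2F1, the activator of S-phase genes, differed by 0.11 (adjusted p = 0.39).

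**Figure D3:**
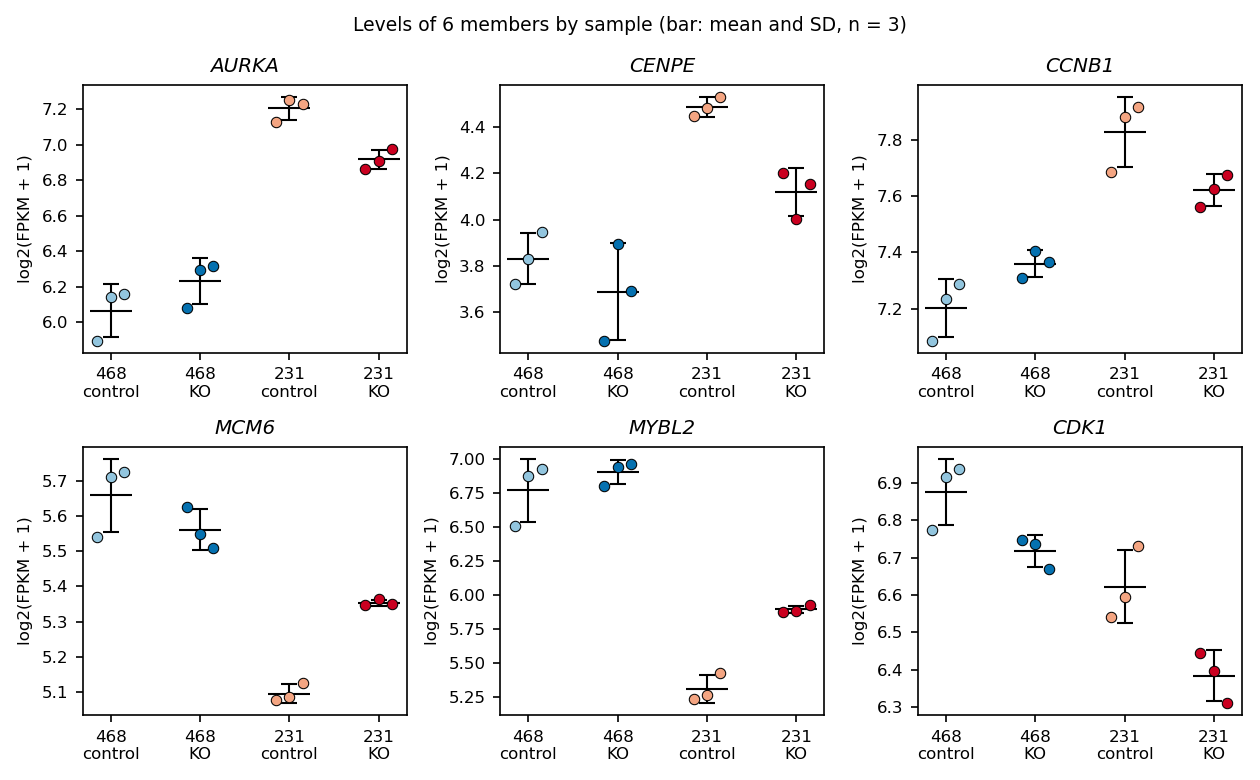
Log2(FPKM + 1) of 6 genes in each of the 12 samples, 3 per group, with bars for the mean and SD; the vertical axes differ between panels and do not start at 0. MYBL2 and MCM6 are higher, and AURKA, CENPE, CCNB1 and CDK1 lower, in every MDA-MB-231 KO sample than in the MDA-MB-231 controls.

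In MDA-MB-468 cells, 0 of 46 members were called after KO, against 2.14% of all genes, and 0 had an adjusted p under 0.05, against 3.75% of all genes. At an unadjusted p under 0.05 limma found 5 members, 2 higher and 3 lower, against 25.1% of all genes. In a fit blocked by replicate number, taking same-numbered samples as pairs, 9 members had an unadjusted p under 0.05. Of these 7 were higher and 2 lower, and 27.2% of all genes passed. An adjusted p under 0.05 was found for 0 members. The mitotic genes split evenly, with 13 of higher and 13 of lower mean after KO, and 18 of 46 members had a lower mean, against 45.5% of all genes. The median change of the mitotic genes was 0.03 and that of the S-phase genes 0.06.

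The 3 members with the smallest p in MDA-MB-468 are given with their values. CENPA was at 5.64, 5.92 and 5.83 in control and 6.08, 6.07 and 6.02 in KO cells, a difference of 0.26 (95% interval 0.07 to 0.46) with an adjusted p of 0.12. CDK1 was at 6.77, 6.92 and 6.94 in control and 6.75, 6.74 and 6.67 in KO cells, a difference of -0.16 (95% interval -0.31 to -0.01, adjusted p = 0.19). TK1 was at 6.14, 6.47 and 6.45 in control and 6.63, 6.63 and 6.57 in KO cells, a difference of 0.25 (adjusted p = 0.19). None of these 3 genes had overlapping groups. Of the 46 members, 8 had all KO samples above the controls and 5 all below. Over the 11529 genes these counts were 2019 and 1560. Of the genes named in MDA-MB-231, AURKA differed by 0.17 (adjusted p = 0.36), CENPE by -0.14 (adjusted p = 0.50), MCM6 by -0.10 (adjusted p = 0.42) and MYBL2 by 0.13 (adjusted p = 0.55). The differences of largest size in the S-phase group were 0.29 for CDT1 and -0.28 for RRM2, both with an adjusted p of 0.22.

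The count of S-phase genes with higher KO levels in MDA-MB-468 changed when 1 control sample was left out. With all samples 13 were higher and 4 lower, a mean change of 0.06. Without control replicate 1, the lowest sample of its group for each of these genes, 9 of 17 were lower and the mean change was -0.04. Leaving out the lowest control can only lower these changes, so the direction of this shift was fixed beforehand. Without control replicate 1 the mean change of the mitotic genes was -0.02 with 14 of 26 lower. Without control replicate 2, 8 of the 26 mitotic genes were lower.

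The KO changes of the 2 cell lines were then compared as an interaction in 1 fit of all 12 samples. The difference passed an adjusted p under 0.05 for 3 of 46 members, against 14.7% of all genes. It was positive, that is higher in MDA-MB-468, for 24 of 26 mitotic genes, with a median of 0.22, against 53.1% of all genes. AURKA had a difference of 0.45 (95% interval 0.18 to 0.73, adjusted p = 0.032). Its samples in MDA-MB-468 were at 5.90, 6.14 and 6.16 in control and 6.08, 6.29 and 6.32 in KO cells, which overlapped. CCNB1 had a difference of 0.36 (95% interval 0.12 to 0.60, adjusted p = 0.047). In MDA-MB-468 it was at 7.09, 7.24 and 7.29 in control and 7.31, 7.40 and 7.36 in KO cells, so that KO samples lay above the controls there and below them in MDA-MB-231. MCM6 had a difference of -0.35 (95% interval -0.55 to -0.16, adjusted p = 0.026), with 5.54, 5.71 and 5.73 in MDA-MB-468 control and 5.62, 5.55 and 5.51 in KO cells. For MYBL2 the difference was -0.45 (95% interval -0.77 to -0.13) with an adjusted p of 0.059. CENPE, which passed in MDA-MB-231, had a difference of 0.22 with an adjusted p of 0.31, so its changes in the cell lines were not shown to differ. In a fit blocked by replicate number 5 members passed, AURKA (adjusted p = 0.017), MYBL2 (0.035), BIRC5 (0.041), CDC20 (0.043) and CCNB1 (0.044), while MCM6 had an adjusted p of 0.067. Leaving out each of the 12 samples in turn gave an adjusted p of 0.014 to 0.080 for AURKA, 0.013 to 0.067 for MCM6 and 0.026 to 0.11 for CCNB1. It stayed under 0.05 in 5 of the 12 fits for AURKA, those without MDA-MB-231 control replicate 1 or KO replicate 3, or MDA-MB-468 control replicate 2 or 3 or KO replicate 1. For MCM6 it did so in 5, without MDA-MB-231 control replicate 2 or 3 or KO replicate 3, or MDA-MB-468 control replicate 1 or KO replicate 1. For CCNB1 it did so in 3, without MDA-MB-231 control replicate 1, MDA-MB-468 control replicate 3 or MDA-MB-468 KO replicate 1. With MDA-MB-231 KO replicate 1 or 2, or MDA-MB-468 KO replicate 2 or 3, left out, 0 of 46 members passed.

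The control cells of both lines differed in many more members than KO and control cells did. These control samples are also those of the KO comparisons. Of 46 members 25 were called, 19 lower in MDA-MB-468, against 31.4% of all genes, and 6 higher, against 32.7% of all genes. Of the mitotic genes 12 were called lower and 1 higher, and of the S-phase genes 6 lower and 4 higher. MYBL2 had the largest difference upwards. It stood at 6.51, 6.88 and 6.93 in MDA-MB-468 against 5.24, 5.27 and 5.43 in MDA-MB-231 controls, 1.46 higher (SE 0.12, adjusted p = 1.14e-05). RRM2 was 1.04 higher, PCNA 0.94, CDT1 0.83 and CENPA 0.78. In the opposite direction UHRF1 stood at 3.97, 4.31 and 4.25 in MDA-MB-468 against 5.59, 5.52 and 5.51 in MDA-MB-231, a difference of -1.36 (SE 0.10, adjusted p = 4.74e-06). AURKB differed by -1.31, AURKA by -1.14, TPX2 by -1.01 and KIF11 by -0.98. Subunits of 1 complex differed in direction, with MCM6 0.56 higher and MCM3 and MCM7 0.63 lower in MDA-MB-468, and with RRM2 1.04 higher and RRM1 0.81 lower. Per length, the highest levels in MDA-MB-468 controls were those of PCNA (mean FPKM 356), RRM2 (331) and PTTG1 (273), and in MDA-MB-231 controls those of UBE2C (316), PTTG1 (300.2) and TYMS (234).

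**Figure D4:**
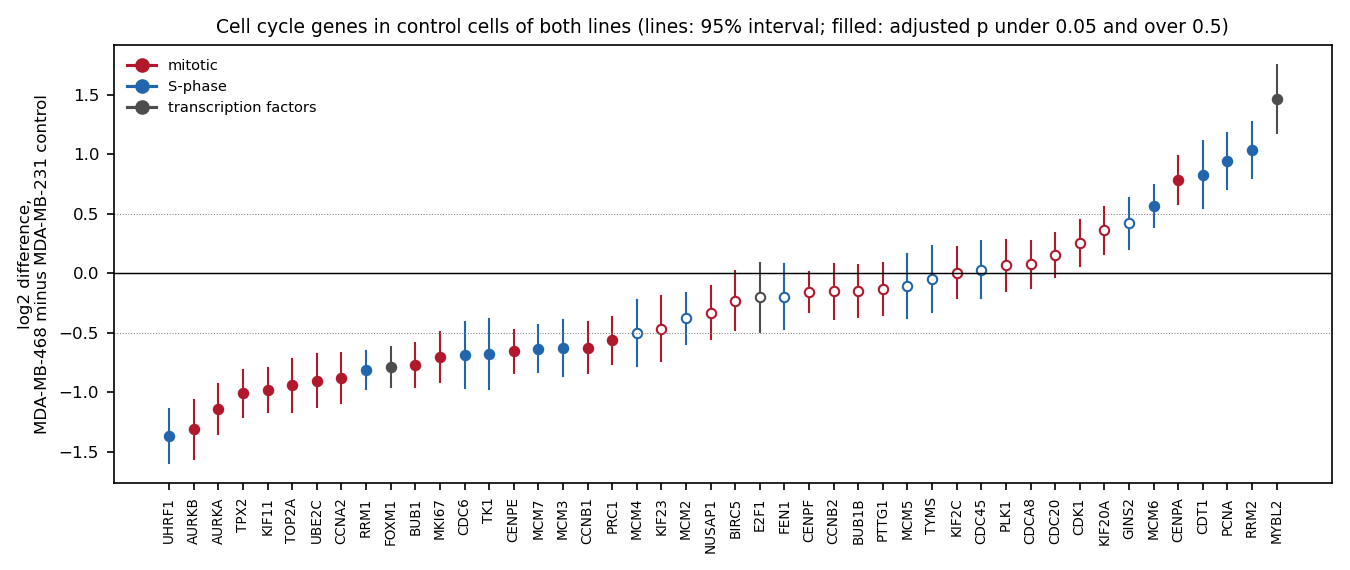
Log2 difference, MDA-MB-468 minus MDA-MB-231, in control cells for the 46 genes in order of size, with 95% intervals from limma. Filled points are the 25 genes past both limits, an adjusted p under 0.05 and a difference beyond 0.5 either way (dotted lines), from UHRF1 at -1.36 to MYBL2 at 1.46.

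Other genes of the pathway also tended to lower means in MDA-MB-231 KO cells. Over all genes 51.5% had a lower mean there and 3.70% were called. Of 59 other mitotic genes measured, 50 had a lower mean in KO cells, with a median change of -0.14, and 1 was called, BUB3, a checkpoint protein. BUB3 was at 7.70, 7.48 and 7.57 in control and 7.03, 7.07 and 7.14 in KO cells and fell by 0.50 (SE 0.07, adjusted p = 0.017). Of 48 other S-phase genes 32 were lower, with a median of -0.07, and 1 was called, E2F2, an activating E2F factor. E2F2 was at 2.00, 1.96 and 2.20 in control and 2.57, 2.60 and 2.73 in KO cells and rose by 0.59 (SE 0.08, adjusted p = 0.018). Of 17 regulators of the RB, E2F and DREAM group 11 were lower and 1 was called, E2F7, an E2F factor that represses its targets. E2F7 was at 4.91, 4.998 and 4.86 in control and 4.32, 4.46 and 4.40 in KO cells and fell by 0.53 (SE 0.06, adjusted p = 0.011). BUB3 lost its adjusted p without control replicate 3 (0.054), KO replicate 1 (0.066) or KO replicate 2 (0.081), and its change ranged from -0.55 to -0.44 over the 6 fits without 1 sample. E2F2 had an adjusted p of 0.051 to 0.077 without any sample other than control replicate 3, and E2F7 one of 0.051 without KO replicate 2.

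In MDA-MB-468 cells 1 gene of these other lists was called, against 2.14% of all genes. It was CDKN1A, the CDK inhibitor p21. CDKN1A was at 4.03, 3.83 and 3.83 in control and 4.73, 4.74 and 4.77 in KO cells and rose by 0.85 (SE 0.07, adjusted p = 0.014). In MDA-MB-231 it differed by 0.07 (adjusted p = 0.70), and the changes of the cell lines differed by 0.78 (adjusted p = 0.0042). Without MDA-MB-468 control replicate 2 or 3 its adjusted p was 0.081 or 0.057, and without KO replicate 2 or 3 it was 0.075 or 0.061, at changes of 0.81 to 0.85. Of the 8 CDK inhibitors 0 were called in MDA-MB-231 by limma, against 3.70% of all genes. An unadjusted p under 0.05 was found for 1, against 31.2% of all genes. CDKN2A and CDKN2B were listed at 0 in all MDA-MB-231 samples. The E2F letters stood in 17 of 40 other S-phase promoters (42.50%) and the CHR letters in 35 of 50 other mitotic promoters (70.00%).

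Changes after KO went with the GC content of the transcripts. Across 10879 genes with an annotated transcript, the log2 fold change and GC content had a Spearman correlation of 0.30 in MDA-MB-468 (0.62 over the 46 members) and of 0.29 in MDA-MB-231 (0.56 over the members). The genes share their libraries, so these values are descriptions. The mitotic genes had a median GC content of 45.4%, the S-phase genes 51.2%, the transcription factors 60.0% and all genes 48.8%. After each sample was corrected for GC content and transcript length, 24 of 26 mitotic genes were still lower in MDA-MB-231 KO cells, with a median of -0.12 in place of -0.15. CENPE then fell by 0.30 (adjusted p = 0.029) and MCM6 rose by 0.30 (adjusted p = 0.016), while AURKA differed by -0.21 (adjusted p = 0.066). MYBL2 rose by 0.49 (adjusted p = 0.0052), under the limit of 0.5. BUB3 (-0.49, adjusted p = 0.010) and E2F2 (0.47, adjusted p = 0.019) then also missed that limit, and E2F7 stayed past it at -0.51. In the interaction the correction left MCM6 at -0.36 (adjusted p = 0.020), with AURKA at 0.38 (adjusted p = 0.060) and CCNB1 at 0.29 (adjusted p = 0.084).

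**Figure D5:**
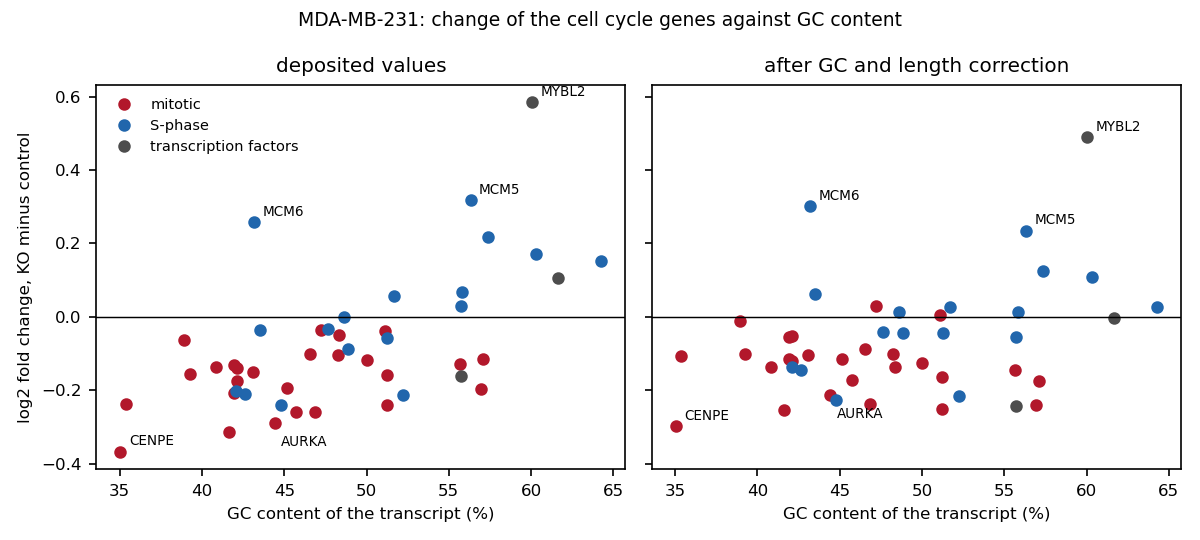
Log2 fold change after KO in MDA-MB-231 cells against the GC content (percent) of the transcript for the 46 genes, from the deposited values (left) and from values corrected for both GC and transcript length (right). The mitotic genes in red have a median of -0.15 on the left and -0.12 on the right, and MYBL2 moves from 0.59 to 0.49.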

How the data were processed

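Values were log2(FPKM + 1) per gene as deposited; to make them the authors used Trimmomatic on the reads, STAR for alignment to hg19 and RSEM for FPKM, and removed genes with an average FPKM or SD under 1. Read depth is unknown. No sample was left out. Each cell line was fitted with limma 3.58.1 in R 4.3.3 (lmFit, eBayes without a trend), 3 KO against 3 control samples, with Benjamini-Hochberg adjustment over 11529 genes; the interaction used all 12 samples. Group means carry SD and fitted changes SE or 95% intervals. Nothing states that replicates were separate cultures, so p-values measure only the spread between these samples. In MDA-MB-468, same-numbered samples deviated together (correlations 0.28, 0.19 and 0.15 over 10187 genes with a mean over 2), so the titles' numbers were taken as pairs. Control replicate 3 was as close to KO replicate 2 (0.15). Over the 46 members the same-number correlations were -0.18, -0.26 and -0.28, and the p numbers would pair other samples.

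The members, lists and tests were chosen with earlier results of these data known. Named were all members, in the control comparison the 5 called with the largest difference each way, and the genes of the other S-phase, other mitotic, RB, E2F and DREAM, and CDK inhibitor lists called in a KO comparison; further genes, markers included, were named after their values were seen. The fitting code was tested on simulated data. GC content came from GENCODE release 44 mapped to GRCh37 (94.36% of genes matched), and the correction subtracted a loess fit (span 0.3) per sample. Of the leukocyte markers 1 of 5 was in the table, and of the endothelial and fibroblast markers 0 of 4 and 0 of 6; the markers outside the table are not analysed here. Alternatives were a pseudocount of 0.1, filters on mean log2 over 1 and 3, an intensity trend, 75th percentile and quantile scaling, the correction, replicate blocks, 1 fit of all samples, other thresholds and leaving out each sample.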

Additional observations from a re-analysis of the deposited data

Results flagged for a closer look

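For 3 of the 46 genes and 10 other genes named here the change after KO was unequal in the 2 cell lines by the interaction test in limma, and each is given as the change in MDA-MB-468 minus that in MDA-MB-231 on the log2 scale. AURKA had a value of 0.45 (0.17 in MDA-MB-468, -0.29 in MDA-MB-231). For CCNB1 it was 0.36 (0.16 and -0.21), and for MCM6 -0.35 (-0.10 and 0.26). BUB3 had a value of 0.60 (0.10 and -0.50, adjusted p = 0.0036), E2F2 one of -0.66 (-0.08 and 0.59, adjusted p = 0.018) and CDKN1A one of 0.78 (0.85 and 0.07, adjusted p = 0.0042). SMARCA4, the targeted gene, had a value of 0.41 (-1.16 and -1.57, adjusted p = 0.027), so its RNA fell less in MDA-MB-468. PRIM2, a subunit of primase, had a value of 0.42 (0.10 and -0.32, adjusted p = 0.016). CDKN2A (0.43, adjusted p = 0.030) and CDKN2B (0.68, adjusted p = 0.020) were listed at 0 in every MDA-MB-231 sample, so their values are the changes in MDA-MB-468 alone, with adjusted p of 0.072 and 0.069 there. Among the markers VIM had a value of 0.81 (adjusted p = 0.019), CDH1 one of -0.76 (adjusted p = 0.014) and CD14 one of -1.75 (adjusted p = 0.026). CDH1 had mean log2 levels of only 0.33 in control and 0.87 in KO cells of MDA-MB-231. Whether the unequal loss of SMARCA4 RNA bears on the others was not tested.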

How the results depend on the processing

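In MDA-MB-468, 0 members were called under every alternative run. With no fold limit, 1 member had an adjusted p under 0.05 there in the 1 fit of all 12 samples, CENPA at 0.042. In MDA-MB-231 (1 called), 0 were called after the GC and length correction, with the replicate block, with both and at an absolute log2 fold change over 1, and 4 with no fold limit; without single samples the count was 0 to 1. In the interaction (3), 5 passed with an intensity trend and 5 with the replicate block, 1 after the correction, 0 at a fold change over 1, 0 at an unadjusted p with the fold limit and 0 to 4 without single samples. Between control cells (25), 6 passed a fold change over 1 and 25 to 27 were called without single samples. Without single samples, lower mitotic genes in MDA-MB-468 numbered 8 to 14 and lower S-phase genes 3 to 9, and in MDA-MB-231 25 to 26 and 7 to 10. The replicate numbers did not pair the MDA-MB-231 samples (correlations -0.07, 0.08 and -0.16, with control replicate 1 closest to KO replicate 3 at 0.25). There the block left 0 genes of the whole table and 0 members at an adjusted p under 0.05, MYBL2 at 0.071, with 18 members (39.1%) at an unadjusted p under 0.05 against 27.1% of all genes. Blocking by the p number in MDA-MB-468 left 0 of all genes at an adjusted p under 0.05, SMARCA4 and CDKN1A at 0.14, and 2 members at an unadjusted p under 0.05 against 19.2% of all genes. CCNB1 in the interaction missed the threshold with a pseudocount of 0.1 and both scalings, AURKA with quantile normalization, and MCM6 with the replicate block, alone (0.067) or with the correction (0.052). No member past a threshold changed direction, but the correction turned the sign of 6 other members in each cell line and 4 in the interaction. The causes were not tested.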

Other observations

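Beside the called genes, other members of the wider mitotic and S-phase lists had an adjusted p under 0.05 after KO in MDA-MB-231 cells at a fold change below the limit. Those given here are a part of them, chosen after their values were seen. With the called genes included, 1 of 59 other mitotic genes was higher and 8 lower at this threshold. Of 48 other S-phase genes 2 were higher and 5 lower, and of all genes 10.8% passed in either direction. SMC4 and NCAPG, subunits of condensin, which compacts mitotic chromosomes, fell by 0.43 (adjusted p = 0.018) and 0.31 (adjusted p = 0.018). NUF2, ZWILCH and ZWINT, proteins of the outer kinetochore, fell by 0.36, 0.36 and 0.22 (adjusted p = 0.033, 0.041 and 0.046). ESPL1, the separase that cuts cohesin, rose by 0.36 (adjusted p = 0.032). The E-type cyclins, which act at S-phase entry, moved in opposite directions. CCNE1 rose by 0.28 (adjusted p = 0.036) and CCNE2 fell by 0.41 (adjusted p = 0.027). GMNN (geminin), the inhibitor of CDT1, fell by 0.41 (adjusted p = 0.033), and PRIM2, a subunit of primase, by 0.32 (adjusted p = 0.026). Once GC content and length of the transcripts were corrected for, ESPL1 (0.22, adjusted p = 0.055), ZWINT (-0.15, adjusted p = 0.16), ZWILCH (-0.27, adjusted p = 0.059) and PRIM2 (-0.21, adjusted p = 0.074) no longer passed.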
